A study of Rattus norvegicus with 18 samples.

Results

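Medullary thyroid carcinomas of homozygous Cdkn1b-mutant rats were compared with those of heterozygous mutants of the same age, 9 months. The 2 groups were taken from the array titles and hold 6 tumours each, 12 of the 18 arrays in the series. The other 6 arrays are of heterozygous tumours at 18 months, which stayed out of the main fit. Their levels are given at the end, and they enter 1 alternative model and 1 alternative rule for choosing the genes and probe sets to test. The animals belong to the MENX model and are labelled as strain Sprague–Dawley white eye/Wistar–Kyoto. They were untreated and kept under specific-pathogen-free conditions. The genotype is labelled as a p27Kip1 mutation, homozygous or heterozygous, so every tumour came from a carrier of the mutation, and no wild-type animal and no normal thyroid is among the samples. Each array carries its own animal code. The codes of the heterozygous group at 9 months held a run of 5 consecutive numbers and those of the homozygous group a run of 3. If such runs mark litters or handling days, these cannot be told apart from the genotype with the labels used here.

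Cdkn1b encodes p27Kip1, an inhibitor that binds complexes of cyclins with cyclin-dependent kinases and holds cells before DNA replication. Its protein is tagged for destruction by the ubiquitin ligase that contains Skp2 and Cks1b, and its transcription is raised by Foxo factors and by menin, the product of Men1. C cells are the neuroendocrine cells of the thyroid that store calcitonin in dense-core granules, and in MENX rats, which carry a mutated Cdkn1b, they give rise to medullary carcinoma.

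RNA was measured on Affymetrix arrays, and values are on the log2 scale, so a difference of 1 is a doubling. Of 14506 genes with a probe set of their own, 11361 reached the minimum level and were tested with limma on the 12 arrays alone. The array medians ran from 7.60 to 7.65. Calca, which encodes calcitonin, measured 13.76 to 14.02 in homozygous and 13.75 to 13.92 in heterozygous tumours, and Chga, the granule protein chromogranin A, 12.34 to 13.03 and 11.82 to 13.15. Tg, the thyroglobulin of follicular cells, measured 14.18 to 14.34 and 14.30 to 14.37, where the brightest probe set of an array measured 14.44 to 14.49. The calcitonin gene of C cells was thus expressed in every sample, and follicular thyroid was present too. In each group Chga was highest and lowest in the tumours with the highest and lowest mean of parathyroid markers. Its value as a marker of C cells alone was not tested. In such bulk samples fewer cells of a type and less RNA per cell cannot be told apart. Homozygous replicate 3 stood apart from the others, at -45.1 on a first principal component (39.9% of the variance) on which the others lay between -14.7 and 17.3. Homozygous tumours also varied more: the median SD of a gene was 0.160 among them and 0.107 among the heterozygous ones, and 76.2% of genes had the larger SD in the homozygous group.

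Among the genes with lower values in homozygous tumours were a vesicle glycoprotein, a collagen-binding proteoglycan, a matricellular protein and an endophilin, whose results are given in what follows. The 250 bases before the start of these genes and of Cdkn1b itself are shown here, 5′ to 3′ on the strand of the gene, from RefSeq (GRCr8), to let a reader see the promoters that the values belong to. They lie at chr1:138562259-138562508 (minus strand) for Sv2b, chr7:34245456-34245705 (plus) for Lum, chr2:140677811-140678060 (plus) for Postn, chr1:145533478-145533727 (plus) for Sh3gl3 and chr4:169491254-169491503 (plus) for Cdkn1b. Capitals mark matches to 4 motifs that were searched: the TATA box TATAAA on the gene's strand, and the AP-1 site TGANTCA, the cAMP response element TGACGTCA and the E-box CACGTG on both strands.
Sv2b: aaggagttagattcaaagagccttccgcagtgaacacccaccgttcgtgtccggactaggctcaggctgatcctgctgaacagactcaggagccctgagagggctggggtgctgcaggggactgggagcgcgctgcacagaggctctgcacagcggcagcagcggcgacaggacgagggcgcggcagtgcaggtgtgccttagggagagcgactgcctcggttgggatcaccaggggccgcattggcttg
Lum: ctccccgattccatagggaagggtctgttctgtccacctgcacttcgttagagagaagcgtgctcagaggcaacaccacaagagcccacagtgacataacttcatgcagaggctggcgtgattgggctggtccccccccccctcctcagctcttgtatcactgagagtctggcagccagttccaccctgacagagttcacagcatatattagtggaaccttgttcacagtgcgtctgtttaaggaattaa
Postn: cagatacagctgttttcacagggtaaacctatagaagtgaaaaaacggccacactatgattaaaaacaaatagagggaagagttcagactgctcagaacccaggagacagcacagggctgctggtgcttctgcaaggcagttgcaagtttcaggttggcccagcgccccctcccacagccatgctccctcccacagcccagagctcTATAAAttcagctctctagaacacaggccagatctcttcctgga
Sh3gl3: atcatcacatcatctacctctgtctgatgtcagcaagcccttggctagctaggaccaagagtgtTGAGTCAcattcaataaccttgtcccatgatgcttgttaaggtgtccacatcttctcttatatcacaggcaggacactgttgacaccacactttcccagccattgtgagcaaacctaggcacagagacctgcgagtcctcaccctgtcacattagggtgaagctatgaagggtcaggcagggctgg
Cdkn1b: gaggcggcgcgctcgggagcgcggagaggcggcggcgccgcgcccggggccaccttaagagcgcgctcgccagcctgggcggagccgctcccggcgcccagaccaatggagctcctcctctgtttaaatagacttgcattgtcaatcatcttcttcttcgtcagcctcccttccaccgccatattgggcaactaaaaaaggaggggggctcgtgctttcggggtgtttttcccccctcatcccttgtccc
Promoter sequences were matched for 20 of the 24 genes that passed the test and for 9387 of all genes tested. The TATA box was found in the Postn window, 44 bases before the start, and in 4.91% of all windows (461). The AP-1 site was found in Sh3gl3, 186 bases before the start, and 3 times in Lama3, against 4.67% of all windows (438). The E-box was found in Sec11c and in 7.99% of all windows (750), and the cAMP response element in none of the 20, against 2.66% of all windows (250). Sv2b, Lum and Cdkn1b held none of the 4 in this stretch.

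Limma called 24 of 11361 genes (0.211%) at an adjusted p under 0.05. Of these, 4 were higher (0.0352%) and 20 lower (0.176%). The changes were small: they ran from 0.334 to 1.17 in size with a median of 0.642, and 1 gene, the matrix gene Postn, passed a change of 1. The homozygous mean of Postn, 6.14, lay below the minimum level for testing (6.32). Over all genes 50.6% were higher in homozygous tumours and the median difference was 0.0015. At an unadjusted p under 0.05 there were 1726 genes (15.2%), 934 higher (8.22%) and 792 lower (6.97%). The 6 homozygous values lay wholly beyond the 6 heterozygous ones in 23 of the 24 called genes, and in 176 of all genes tested (1.55%; 72 or 0.634% higher, 104 or 0.915% lower). Choosing genes by p on these same values favours such separation, so it is no separate support for the 24. The count depended on the arrays in the fit. It was 10, 3, 12, 12 and 9 without homozygous replicates 1, 2, 4, 5 and 6 in turn, 34 without homozygous replicate 3, and 9, 9, 5, 5, 3 and 3 without heterozygous replicates 1 to 6. A model that took in the 18-month tumours called 0 genes, with a smallest limma adjusted p of 0.101 and 995 genes at an unadjusted p under 0.05. Smpd3, Sv2b and Chrnb3 were called in all 12 fits that left out 1 array and Lum and Tgm2 in 9 of them. The other 19 genes were called in at most 4 of the 12, and Esrrb, Plppr3 and Uxs1 in 0. All 24 genes kept an unadjusted p under 0.05 and their direction in those fits. They had been chosen by their p on these same arrays, so this is no separate support.

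**Figure D1:**
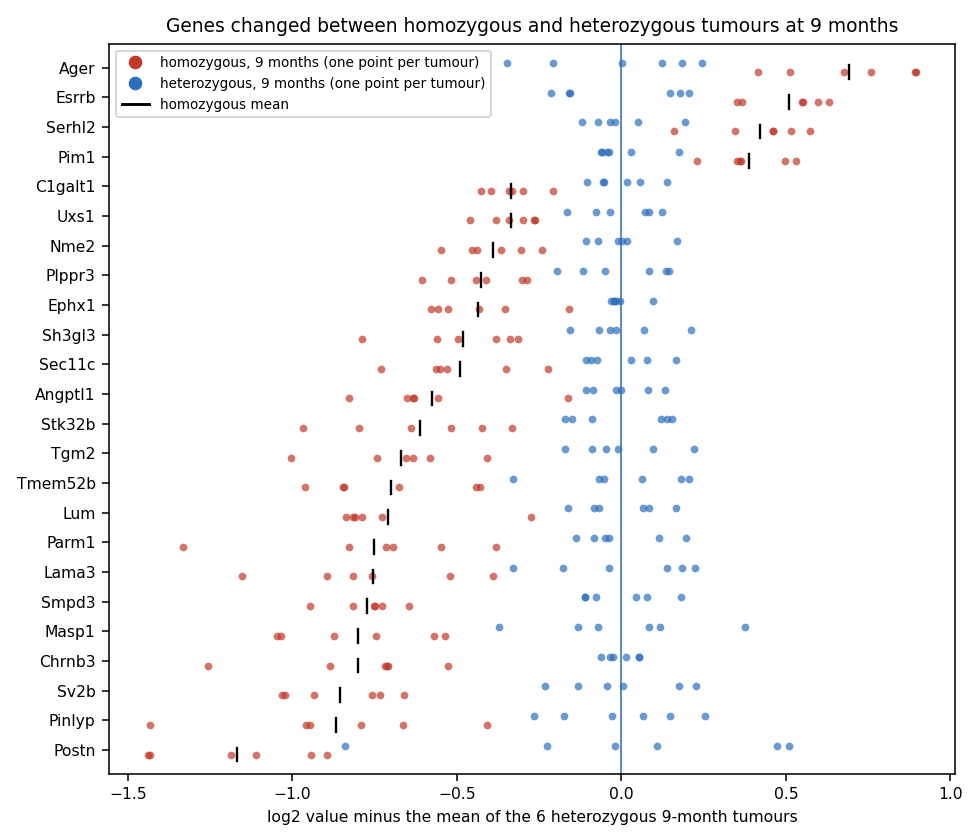
The 24 genes called between the genotypes, 1 row a gene, with each tumour's log2 value relative to the mean of the 6 heterozygous tumours at 9 months on the horizontal axis. Red points are homozygous and blue points heterozygous tumours, and black ticks are homozygous means. Red and blue points do not overlap in any row but that of Serhl2, and Postn has the largest difference (-1.17).

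The gene with the smallest p was Smpd3, a neutral sphingomyelinase that cuts the membrane lipid sphingomyelin to ceramide. It measured 9.13, 9.32 and 9.43 (lowest, median, highest) in homozygous tumours and 9.96, 10.06 and 10.26 in heterozygous ones. The groups lay far apart relative to their spread, and Smpd3 fell by 0.77 (SE 0.07, limma adjusted p = 0.000399). It was the 1 called gene of the 19 tested in the sphingolipid list, against 0.176% of all genes called lower. In that list 8 genes were higher and 11 lower, with a median of -0.013.

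Sv2b, Chrnb3, Sh3gl3 and Plppr3 fell too. Sv2b, a glycoprotein of synaptic and secretory vesicles whose promoter is shown above, measured 6.59, 6.78 and 6.97 in homozygous tumours and 7.39, 7.61 and 7.85 in heterozygous ones. It fell by 0.86 (SE 0.09, limma adjusted p = 0.00288). Chrnb3, a beta subunit of nicotinic acetylcholine receptors, measured 8.29, 8.84 and 9.02 against 9.49, 9.55 and 9.60. The heterozygous values of Chrnb3 sat within a narrow band while the homozygous ones were spread, and the gene fell by 0.80 (SE 0.10, limma adjusted p = 0.00747). Sh3gl3, an endophilin that shapes membranes during endocytosis, measured 8.13, 8.47 and 8.60 against 8.76, 8.89 and 9.12 and fell by 0.48 (SE 0.09, limma adjusted p = 0.0451). Plppr3, a brain-enriched membrane protein related to lipid phosphatases, fell by 0.43 (SE 0.08, limma adjusted p = 0.0451), from a heterozygous median of 10.41 to 9.97. Plppr3 and the genes Parm1, Stk32b and Uxs1 lie outside the rule for naming genes and were chosen after their values were seen.

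The list of synaptic vesicles and regulated exocytosis as a whole leaned to the other side from Sv2b. Homozygous tumours had the higher mean in 26 of its 32 tested genes, and the median difference was 0.28. At an unadjusted p under 0.05, 12 were higher and 3 lower, against 8.22% and 6.97% of all genes. Sv2b was the 1 called gene, against 0.176% of all genes called lower. Without homozygous replicate 3 the median was 0.16. In the endocytosis list 17 of 23 genes were higher with a median of 0.10, and 0.062 without homozygous replicate 3. Sh3gl3 was its 1 called member, against the same 0.176% of all genes called lower.

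Lum and Postn, both on the list of fibroblast and matrix markers, were lower as well. Lum, the proteoglycan lumican that binds collagen fibrils, measured 9.34, 9.38 and 9.91 in homozygous and 10.02, 10.18 and 10.35 in heterozygous tumours. Its homozygous values were close together except for replicate 4 at 9.91, and Lum fell by 0.71 (SE 0.10, limma adjusted p = 0.0168). Postn, the matricellular protein periostin, measured 5.87, 6.16 and 6.42 against 6.47, 7.35 and 7.82. It fell by 1.17 (SE 0.20, limma adjusted p = 0.0444), with the highest homozygous value just under the lowest heterozygous one. The homozygous mean of Postn, 6.14, lay below the minimum level for testing (6.32). Postn reached that level only through its heterozygous mean of 7.31, so the size of its fall is uncertain. Lama3, Tgm2 and Angptl1, which are on none of the lists, fell likewise. Lama3, the laminin alpha 3 chain of epithelial basement membranes, measured 8.29, 8.66 and 9.06 against 9.12, 9.50 and 9.67 and fell by 0.76 (SE 0.13, limma adjusted p = 0.0444). Tgm2, a transglutaminase that cross-links proteins, measured 9.37, 9.73 and 9.96 against 10.20, 10.34 and 10.59 and fell by 0.67 (SE 0.09, limma adjusted p = 0.0184). The secreted protein Angptl1, related to angiopoietins, fell by 0.58 (SE 0.09, limma adjusted p = 0.0372), and the highest homozygous value of 8.37 lay just under the lowest heterozygous one of 8.42.

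Other markers of fibroblasts and matrix stood lower as well. Of 23 tested markers 19 had the lower mean in homozygous tumours, and the median difference was -0.20. There were 12 lower and 1 higher at an unadjusted p under 0.05, against 6.97% and 8.22% of all genes. Lum and Postn were called, against 0.176% of all genes called lower, and Postn was tested only through its level in heterozygous tumours. Dpt, which encodes the matrix protein dermatopontin, lay just past the threshold at -0.36 (SE 0.07, limma adjusted p = 0.0530). The fibrillar collagens Col3a1 and Col1a1 differed by -0.31 and -0.23. The mean of the list ran from 9.03 to 9.40 in homozygous and from 9.36 to 9.57 in heterozygous tumours, so the groups overlapped. The part of differing fibroblast content in the results for Lum and Postn was not tested. With the mean of the endothelial list in the model, Lum differed by -0.66 and Postn by -1.17, with limma adjusted p-values of 0.122 and 0.15. Lum remained called with the parathyroid list (-0.74, limma adjusted p = 0.0277) and with the follicular list (-0.72, limma adjusted p = 0.0428), but not with the skeletal muscle (-0.70, limma adjusted p = 0.0554) or C cell list (-0.69, limma adjusted p = 0.116). Postn was called with none of the 5 lists, and its difference ran from -1.10 to -1.28.

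Sec11c, C1galt1 and Uxs1, which act on proteins and sugar chains, were also among the genes that fell. Sec11c, a catalytic subunit of the signal peptidase that trims new secretory proteins, measured 10.17, 10.36 and 10.67 in homozygous and 10.79, 10.88 and 11.06 in heterozygous tumours, a fall of 0.49 (SE 0.08, limma adjusted p = 0.0421). C1galt1, the galactosyltransferase that extends O-linked sugar chains, measured 9.14, 9.23 and 9.36 against 9.46, 9.55 and 9.70 and fell by 0.33 (SE 0.06, limma adjusted p = 0.0404). Uxs1, which makes the UDP-xylose that starts glycosaminoglycan chains, fell by 0.34 (SE 0.06, limma adjusted p = 0.0451).

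Lists of the endoplasmic reticulum, the first of which holds Sec11c, stood slightly lower. Of 27 tested genes of translocation into the endoplasmic reticulum and signal peptide processing 23 were lower, with a median of -0.060, and 9 were lower and 0 higher at an unadjusted p under 0.05. Of 25 genes of the reticulum's chaperones and the unfolded protein response 21 were lower with a median of -0.18, 10 lower and 1 higher at that p, and 0 called. The shares of all genes at that p were 6.97% lower and 8.22% higher. Derl3, a factor that pulls misfolded proteins out of the reticulum, measured 8.63, 9.10 and 9.53 against 9.19, 9.86 and 10.29, and the groups overlapped (limma adjusted p = 0.206). These medians stayed within 1.5 times when any 1 tumour was left out. The list means overlapped between the groups, with 10.89 to 11.13 in homozygous and 10.94 to 11.48 in heterozygous tumours for chaperones, and 10.95 to 11.10 and 11.05 to 11.24 for translocation.

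The remaining genes that fell belong to several functions. Masp1, a serine protease of the lectin pathway of complement, measured 7.66, 7.90 and 8.17 against 8.33, 8.71 and 9.08 and fell by 0.80 (SE 0.13, limma adjusted p = 0.0372). Ephx1, the microsomal epoxide hydrolase, measured 10.79, 10.89 and 11.21 against 11.34, 11.35 and 11.46 and fell by 0.43 (SE 0.07, limma adjusted p = 0.0372). Nme2, a nucleoside diphosphate kinase, measured 11.15, 11.30 and 11.46 against 11.59, 11.70 and 11.87 and fell by 0.39 (SE 0.06, limma adjusted p = 0.0372). In each of these the lowest heterozygous tumour stood above the highest homozygous one. Pinlyp, a secreted protein of the phospholipase A2 inhibitor family, fell by 0.87 (SE 0.15, limma adjusted p = 0.0421) and the membrane protein Tmem52b by 0.70 (SE 0.11, limma adjusted p = 0.0372). Parm1, a mucin-like membrane protein, and Stk32b, a serine/threonine kinase, fell by 0.75 (SE 0.13, limma adjusted p = 0.0444) and 0.61 (SE 0.11, limma adjusted p = 0.0451).

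Only 4 genes rose. Pim1, a serine/threonine kinase that has p27 among its substrates, measured 9.21, 9.35 and 9.52 in homozygous and 8.92, 8.94 and 9.16 in heterozygous tumours, a rise of 0.39 (SE 0.06, limma adjusted p = 0.0372). Ager, the receptor for advanced glycation end products, measured 8.54, 8.84 and 9.02 against 7.77, 8.19 and 8.37 and rose by 0.69 (SE 0.12, limma adjusted p = 0.0421). Esrrb, an orphan nuclear receptor related to oestrogen receptors, measured 8.59, 8.79 and 8.87 against 8.03, 8.24 and 8.45 and rose by 0.51 (SE 0.09, limma adjusted p = 0.0451). For these 3 genes the groups did not overlap. Serhl2, a serine hydrolase-like gene, rose by 0.42 (SE 0.08, limma adjusted p = 0.0451), although its lowest homozygous value of 7.71 lay below the highest heterozygous one of 7.74. In the 12 fits that left out 1 array Pim1 was called 3 times, Ager 2 times, Serhl2 1 time and Esrrb 0 times. Each gene kept an unadjusted p under 0.05 there, which its choice on these same arrays favoured. Esrrb was the 1 called member among 29 tested nuclear receptors, against 0.0352% of all genes called higher. Of these receptors 12 were higher and 17 lower with a median of -0.036.

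The next genes by p on the higher side missed the threshold. Castor2, of a family of arginine sensors upstream of mTORC1, differed by 0.42 (SE 0.08, limma adjusted p = 0.0697) and Pcsk1n, which encodes proSAAS, an inhibitor of a prohormone convertase, by 0.91 (SE 0.18, limma adjusted p = 0.0735). Pcsk1n measured 11.12, 11.93 and 12.18 against 10.55, 10.91 and 11.26, so its lowest homozygous tumour overlapped the heterozygous ones. Rgma, a co-receptor for bone morphogenetic proteins, differed by 0.27, the zinc finger factor Hivep1 by 0.36, the calsyntenin Clstn2 by 0.54 and the proline dehydrogenase Prodh by 0.65. On the lower side Wnt5a, a secreted ligand of Wnt signalling, differed by -0.48 (SE 0.09, limma adjusted p = 0.0558) with non-overlapping groups. At the threshold itself, Uxs1, Serhl2 and Sh3gl3 lay just inside (limma adjusted p = 0.0451) and Dpt, Wnt5a and Castor2 just outside.

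Larger differences than most called genes showed were found among genes that separated the groups but missed the threshold. Dsc3, the desmosomal cadherin desmocollin 3, measured 8.53, 10.22 and 10.70 in homozygous and 10.95, 11.10 and 11.36 in heterozygous tumours, a difference of -1.25 (SE 0.29, limma adjusted p = 0.144). Slco1a4, an organic anion transporter, differed by -0.84 (SE 0.18, limma adjusted p = 0.108). Tox, a nuclear HMG-box protein, measured 9.10, 9.34 and 11.05 against 8.20, 8.73 and 9.05, and its difference of 0.91 (SE 0.29, limma adjusted p = 0.238) leaned on homozygous replicate 3, the highest of its group. Without that tumour the difference of Tox was 0.62.

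The mutated gene was higher in homozygous tumours. Cdkn1b measured 10.96, 11.06 and 11.25 (lowest, median, highest) in them and 10.67, 10.76 and 10.90 in heterozygous tumours. All 6 homozygous values lay above all 6 heterozygous ones, as they did for 0.634% of all genes, and the difference of 0.295 (SE 0.06) missed the threshold (limma adjusted p = 0.0997). The files do not say whether the probe set reads the mutated stretch of the transcript, and the value is therefore no check of the genotype or of the protein.

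Around Cdkn1b, 23 of 33 listed genes of cyclins, kinases, inhibitors and p27 turnover were tested; 13 were higher and 10 lower, the median was 0.018, and 0 were called. At an unadjusted p under 0.05 there were 5 higher and 3 lower, against 8.22% and 6.97% of all genes. Among the inhibitors, Cdkn2c, which encodes p18 and blocks Cdk4 and Cdk6, measured 8.90, 9.28 and 9.61 against 8.47, 8.75 and 9.09 (difference 0.45, SE 0.13, limma adjusted p = 0.224), while Cdkn1a, which encodes p21, differed by 0.05 and Cdkn1c, which encodes p57, by 0.06. Of the cyclins, Ccne2, a partner of Cdk2 at the start of DNA replication, differed by 0.56 (SE 0.22), with 8.62 in homozygous replicate 3 and at most 7.53 in the other 5, and by 0.34 without that tumour. Ccnd1 differed by -0.28 with 11.01 in homozygous replicate 3. Its other 5 homozygous values, 9.13 to 9.83, lay below all 6 heterozygous ones, 9.94 to 10.21, and without that tumour the difference of Ccnd1 was -0.52. Ccnd2 differed by -0.23. The kinases Cdk4 and Cdk6 differed by -0.11 and -0.27 and Cdk2 by 0.08. Of the ligase that marks p27 for destruction, the receptor subunit Skp2 differed by 0.21 (SE 0.09) and its cofactor Cks1b by -0.18 (SE 0.08). Men1 differed by 0.11 (SE 0.05), Foxo1 by 0.04 and Foxo3 by 0.01. With all 12 tumours the groups overlapped for all of these but Cdkn1b. The genes of this list other than Cdkn1b and Cdkn2c, and Dpt, Col3a1 and Col1a1 among the matrix genes, were also chosen after their values were seen.

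**Figure D2:**
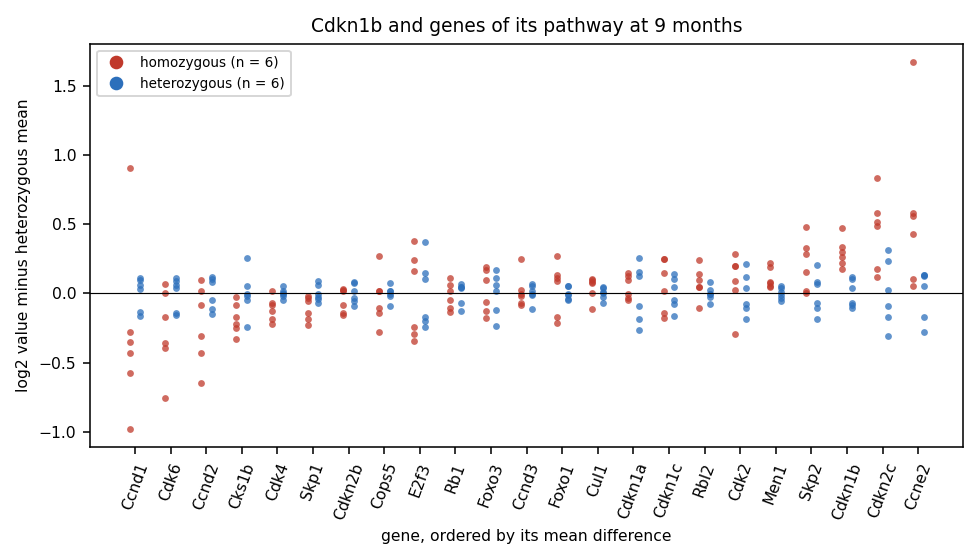
Cdkn1b and the other tested genes of its pathway, ordered by their difference, with each tumour's log2 value relative to the mean of the heterozygous tumours at 9 months on the vertical axis. Red points are the 6 homozygous and blue points the 6 heterozygous tumours. The groups are apart for Cdkn1b, and the highest point of all is Ccne2 in homozygous replicate 3.

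Programmes of differentiated C cells leaned to higher values in homozygous tumours without a called gene on that side. In the C cell and neuroendocrine list 24 of 28 genes were higher, with a median of 0.49 against 0.0015 over all genes. At an unadjusted p under 0.05, 15 were higher and 0 lower, against 8.22% and 6.97% of all genes. Without homozygous replicate 3 the median was 0.32. Uchl1, a ubiquitin hydrolase of neurons and endocrine cells, measured 11.17, 11.40 and 12.42 in homozygous and 10.22, 10.80 and 11.08 in heterozygous tumours (difference 0.79, SE 0.20, limma adjusted p = 0.184). Its groups did not overlap, and it was the 1 gene of this list for which they did not, against 0.634% of all genes on the higher side. Snap25, which drives vesicle fusion, measured 11.36, 11.83 and 12.77 against 10.63, 11.24 and 11.42 (difference 0.74, SE 0.21, limma adjusted p = 0.216). Of 16 genes of prohormone processing and granule cargo 12 were higher with a median of 0.40, and Cadps, which primes dense-core granules for release, differed by 0.66 (SE 0.20, limma adjusted p = 0.233).

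Genes of electrical excitability leaned the same way. Of 37 voltage-gated and related ion channels 30 were higher, with a median of 0.43, and 0 were called. At an unadjusted p under 0.05, 16 were higher and 2 lower, against 8.22% and 6.97% of all genes. The median was 0.25 without homozygous replicate 3. Kcnj6, a potassium channel gated by G proteins, measured 8.002, 8.19 and 8.77 against 7.58, 7.78 and 7.93 (difference 0.54, SE 0.11, limma adjusted p = 0.0997), and Kcnd3, a fast-inactivating potassium channel, 7.88, 8.11 and 8.62 against 6.79, 7.50 and 7.81 (0.71, SE 0.17, limma adjusted p = 0.165). Both channels separated the groups, as did 0.634% of all genes on the higher side. Of 36 listed neurotransmitter receptors and enzymes of GABA synthesis on the array, 19 reached the level for testing. Of these 14 were higher with a median of 0.30, or 0.15 without homozygous replicate 3, and 0 were called. The nicotinic receptor subunit Chrnb3, which is on none of the lists, was called and went the other way (-0.80). In that list the kainate receptor subunit Grik5 differed by 0.30 (SE 0.08, limma adjusted p = 0.209) and the muscarinic receptor Chrm3 by -0.24 (SE 0.08, limma adjusted p = 0.238).

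Markers of follicular cells ran the other way in the same tumours. Of 13 tested markers 12 stood below the heterozygous mean, the median was -0.15, and it was -0.226 without homozygous replicate 1 and -0.054 without homozygous replicate 3, the tumour with the highest C cell and the lowest follicular mean. The follicular mean ran from 10.48 to 11.32 in homozygous and from 11.25 to 11.38 in heterozygous tumours. Duox2, which makes the hydrogen peroxide for hormone synthesis, measured 8.19, 9.07 and 9.30 against 9.37, 9.46 and 9.57 (difference -0.49, SE 0.15, limma adjusted p = 0.233), and its maturation factor Duoxa1 differed by -0.35. The part of a differing share of follicular tissue in the neuroendocrine values was not tested.

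**Figure D3:**
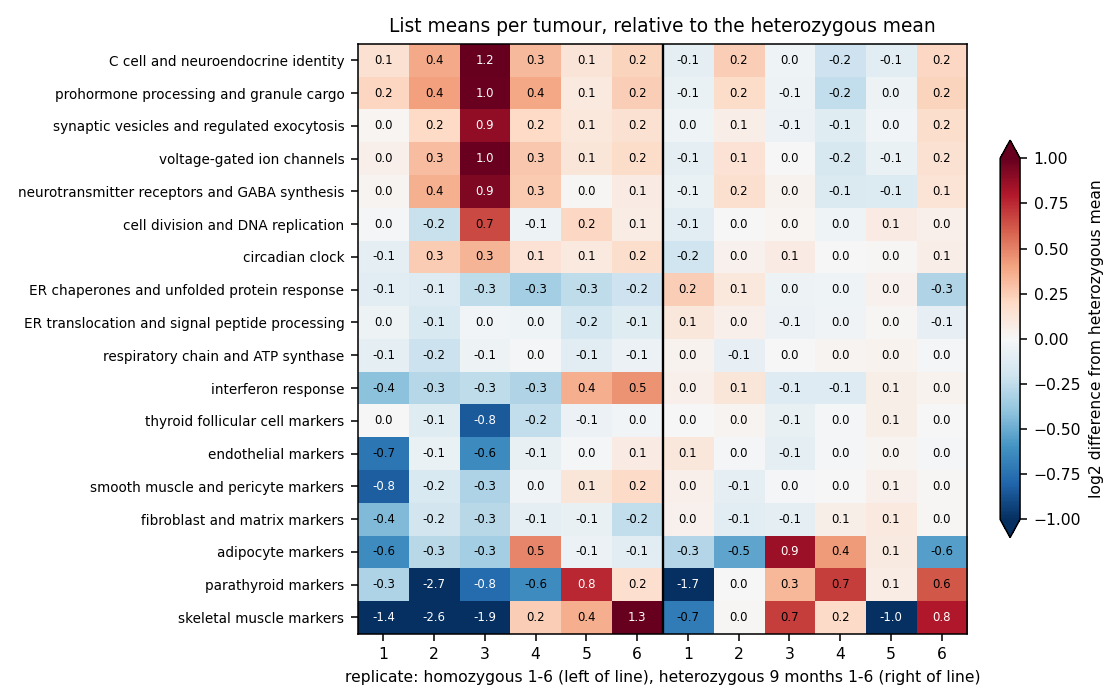
Mean log2 value of 18 gene lists in each of the 12 tumours, relative to the mean of the heterozygous tumours at 9 months, with homozygous replicates 1 to 6 left of the line and heterozygous ones right of it. Red is higher and blue lower, and colours stop at 1 in either direction. Homozygous replicate 3 is the highest for the 5 neuroendocrine and neuronal lists and the lowest for follicular markers, and muscle and parathyroid markers vary widely in both groups.

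In 8 signalling lists 4 of 229 entries separated the groups (1.75%, against 1.55% of all genes) and 0 were called. In TGF-beta and BMP signalling 22 of 34 genes were higher with a median of 0.030 (0.024 to 0.065 without 1 tumour in turn). At an unadjusted p under 0.05, 7 were higher and 0 lower, against 8.22% and 6.97% of all genes. Bmp4, a ligand, measured 8.81, 9.19 and 9.37 against 8.56, 8.75 and 8.86 (difference 0.42, SE 0.09, limma adjusted p = 0.128), and the target Id2, an inhibitor of differentiation factors, differed by 0.34 (SE 0.10, limma adjusted p = 0.225). In Wnt signalling 23 of 35 were lower with a median of -0.044 (-0.066 to -0.025 without 1 tumour in turn), and in receptor tyrosine kinases and ligands 27 of 38 with a median of -0.076, or -0.022 without homozygous replicate 3. The growth factor Igf2 measured 7.08, 7.13 and 7.19 against 7.19, 7.35 and 7.51 (difference -0.22, SE 0.06, limma adjusted p = 0.209), and Kitlg, the ligand of the receptor Kit, differed by -0.44. The immediate early genes Jun and Junb differed by 0.36 and 0.20, and the Notch ligand Jag2 and the Notch target Hes5 by 0.20 and -0.17. Among receptors of peptide hormones that neuroendocrine tumours carry, 12 of 19 were lower with a median of -0.055, or -0.100 without homozygous replicate 1 and -0.029 without homozygous replicate 4. Npy1r, a receptor of neuropeptide Y, measured 6.89, 7.06 and 7.37 against 7.30, 7.56 and 7.77 (difference -0.46, SE 0.10, limma adjusted p = 0.0966), and Adcyap1r1, the receptor of the peptide PACAP, differed by -0.28. Of the hormones themselves 11 of 19 were higher with a median of 0.046, while stanniocalcin 1 (Stc1) differed by -0.48 (SE 0.12, limma adjusted p = 0.180) and neuromedin B (Nmb) by -0.28. Axon guidance genes split 17 higher and 15 lower, with the semaphorins Sema5a and Sema3c at -0.48 and -0.52.

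The metabolic and housekeeping lists of this paragraph had medians from -0.12 for fatty acid metabolism to 0.0355 for mTORC1 signalling, and 0 called genes. The sphingolipid list, with Smpd3 as its called gene, and the cholesterol list (median 0.058) are described elsewhere. Of 52 genes of the respiratory chain and ATP synthase 45 were lower, with a median of -0.077. At an unadjusted p under 0.05, 13 were lower and 0 higher, against 6.97% and 8.22% of all genes. Ndufa4, a subunit of that chain, measured 11.73, 11.96 and 12.17 against 12.17, 12.23 and 12.27 (difference -0.27, SE 0.07, limma adjusted p = 0.184). Mitochondrial ribosome genes were lower in 27 of 43 cases (median -0.018), whereas cytosolic ribosome genes were higher in 35 of 59 (median 0.0058) and proteasome genes lower in 21 of 33 (median -0.011). Fatty acid metabolism had 18 of 24 genes lower with a median of -0.12, which was -0.071, -0.080 and -0.061 without homozygous replicates 1 and 3 and heterozygous replicate 3 in turn. The desaturase Fads1 differed by -0.25. In the Nrf2 list 13 of 23 were lower, and the factor itself, Nfe2l2, measured 11.36, 11.44 and 11.55 against 11.55, 11.66 and 11.72 (difference -0.20, SE 0.05, limma adjusted p = 0.158). Genes of glycolysis and the hypoxia response (14 of 26 higher), of lysosomes (17 of 30) and of mTORC1 signalling (16 of 27) split close to evenly. Psat1, an enzyme of serine synthesis, differed by -0.44 (SE 0.13), with 11.57 in homozygous replicate 3.

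Lists of proliferation, clock and chromatin leaned upwards by little. In the cell division list 19 of 24 were higher with a median of 0.11, which was 0.039 without homozygous replicate 3. The mitotic kinase Plk1 measured 8.22 in that tumour and at most 7.27 in the other 5 homozygous ones, against at most 7.14 in heterozygous tumours. Of the p53 targets 12 of 17 were higher with a median of 0.015. Of the clock genes 13 of 15 were higher with a median of 0.049, and the repressor Cry1 measured 7.55, 7.92 and 8.61 against 6.97, 7.22 and 7.74 (difference 0.66, SE 0.18, limma adjusted p = 0.206). That median was 0.125 without homozygous replicate 1 and 0.098, 0.085 and 0.087 without heterozygous replicates 2, 3 and 4. Of 26 chromatin modifiers 19 were higher with a median of 0.081, and the demethylase Kdm6b and the methyltransferase Ezh2 differed by 0.28 and 0.20. Neither passed the test.

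**Figure D4:**
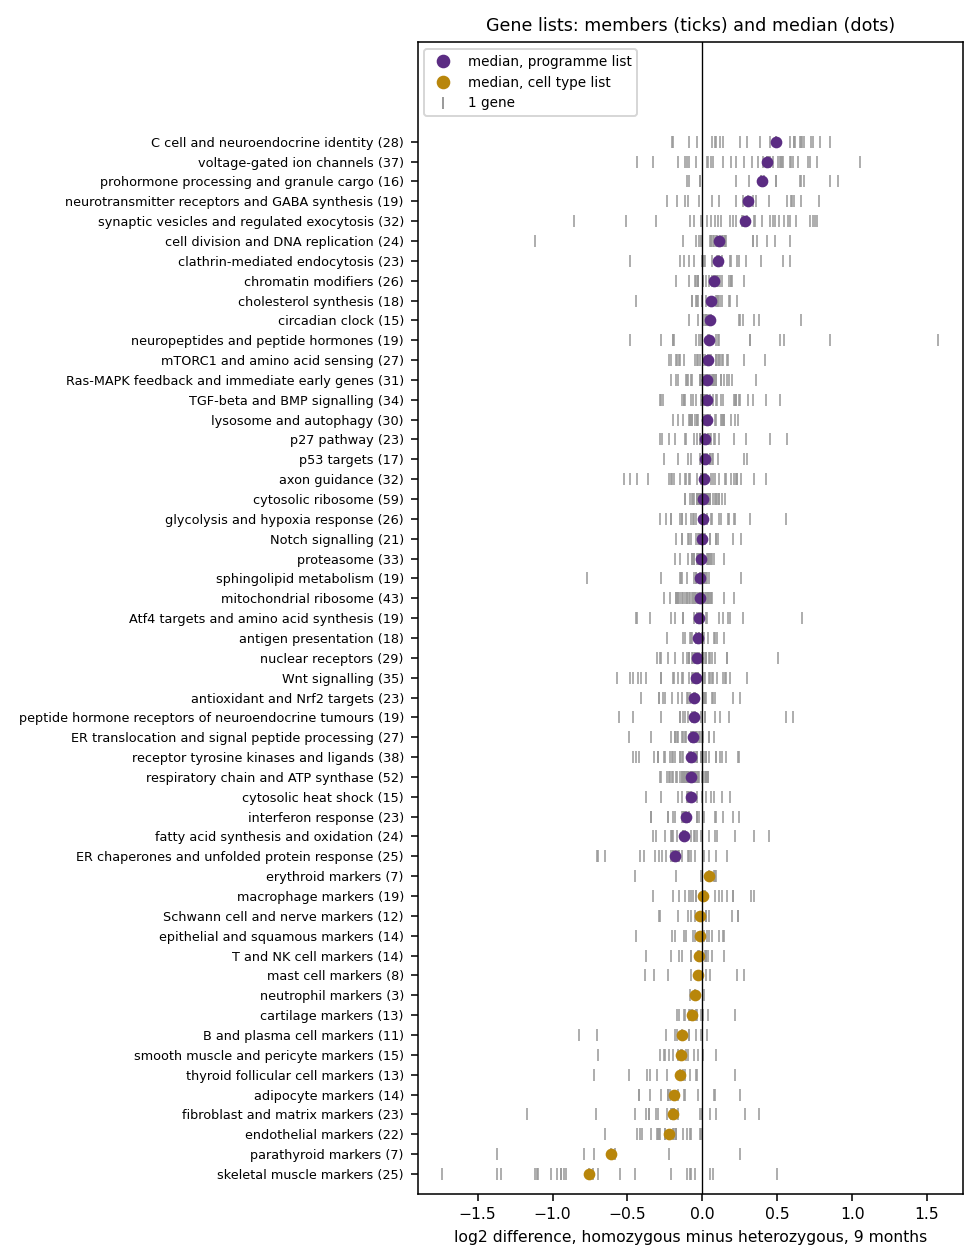
Differences (homozygous minus heterozygous, log2) of all tested members of 53 gene lists, 1 row a list with its number of tested genes in brackets. Grey ticks are genes, violet dots are medians of programme lists and ochre dots medians of cell type lists. The C cell list has the highest median (0.49) and the skeletal muscle list the lowest (-0.76).

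Markers of the tissue around the C cells stood lower with all 12 tumours, with wide variation between them. Without homozygous replicates 1, 2 and 3 the list means differed by 0.64 for skeletal muscle, 0.095 for parathyroid, 0.091 for smooth muscle and 0.108 for adipocyte markers, now higher in homozygous tumours. The difference was then close to 0 for endothelial markers and -0.135 for fibroblast and matrix markers. All 22 endothelial markers stood below their heterozygous mean, the median difference was -0.22, or -0.13 without homozygous replicate 3, and the apelin receptor Aplnr measured 7.71, 8.91 and 8.96 against 8.96, 9.28 and 9.45 (difference -0.65, SE 0.20, limma adjusted p = 0.236). Skeletal muscle markers were lower in 22 of 25 cases with a median of -0.76, although 0 reached an unadjusted p under 0.05, and the median was -0.35 without homozygous replicate 2. The mean of the muscle list ran from 7.15 to 11.05 in homozygous and from 8.75 to 10.55 in heterozygous tumours. Parathyroid markers were lower in 6 of 7 cases, with a list mean of 8.49 to 11.91 and 9.46 to 11.85. Casr, the calcium receptor that C cells share with parathyroid cells, was the member on the higher side (0.25, SE 0.11, limma adjusted p = 0.312). Smooth muscle and pericyte markers were lower in 13 of 15 cases with a median of -0.14, or -0.015 without homozygous replicate 1 and -0.088 without heterozygous replicate 1.

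Macrophage, T and NK cell and mast cell lists had medians near 0, while most B and plasma cell markers stood lower. Macrophage markers split 10 higher and 9 lower with a median near 0, and the surface receptor Adgre1 (-0.33) and the complement chain C1qb (0.35) went opposite ways. T and NK cell markers were lower in 8 of 14 cases and mast cell markers in 4 of 8, with medians of -0.023 and -0.026. At an unadjusted p under 0.05, 1 mast cell marker was higher and 2 were lower, against 8.22% and 6.97% of all genes. The lower ones were the mast cell proteases Cpa3 (-0.38, SE 0.15, limma adjusted p = 0.264) and Mcpt1l1 (-0.33, SE 0.14, limma adjusted p = 0.304). B and plasma cell markers were lower in 10 of 11 cases with a median of -0.14, or -0.060 without heterozygous replicate 1. Their list mean ran from 7.43 to 7.88 in homozygous and from 7.75 to 7.95 in heterozygous tumours. In the interferon list 17 of 23 were lower with a median of -0.11. Without 1 homozygous tumour in turn that median ran from -0.213 (replicate 6) to 0.019 (replicate 1). No list mean separated the 2 groups in any of the 53 lists. The part of other cell types in the 24 called genes was not tested. Some list means were entered as covariates, but not that of the fibroblast list. With the mean of the skeletal muscle, parathyroid or endothelial list in the model 3, 6 and 3 genes were called. The differences of the 24 genes themselves were then 90.6% to 106% (muscle), 87.6% to 106% (parathyroid) and 78.5% to 111% (endothelial) of those without the covariate, all in the same direction. With the C cell and follicular lists, added after the data had been seen, they were 70.5% to 104% and 73.4% to 109%.

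At 18 months the called genes had these levels in heterozygous tumours, which share no fit with the comparison but belong to the same genotype as its controls. Smpd3 measured 9.03, 9.34 and 10.11, Sv2b 6.25, 6.32 and 7.09 and Chrnb3 6.39, 7.74 and 8.25. Lum measured 8.63, 9.28 and 9.89, Tgm2 8.64, 9.68 and 10.05 and Lama3 6.64, 7.69 and 8.52. Of the genes that were higher at 9 months, Pim1 measured 8.87, 9.23 and 9.51, Ager 7.77, 8.22 and 9.61 and Esrrb 8.30, 8.50 and 8.79. Cdkn1b measured 10.65, 10.96 and 11.10. The spread between these older tumours was wide, with SDs of 0.89 for Lama3 and 0.69 for Chrnb3, and the difference between them and either group at 9 months was not tested here.

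**Figure D5:**
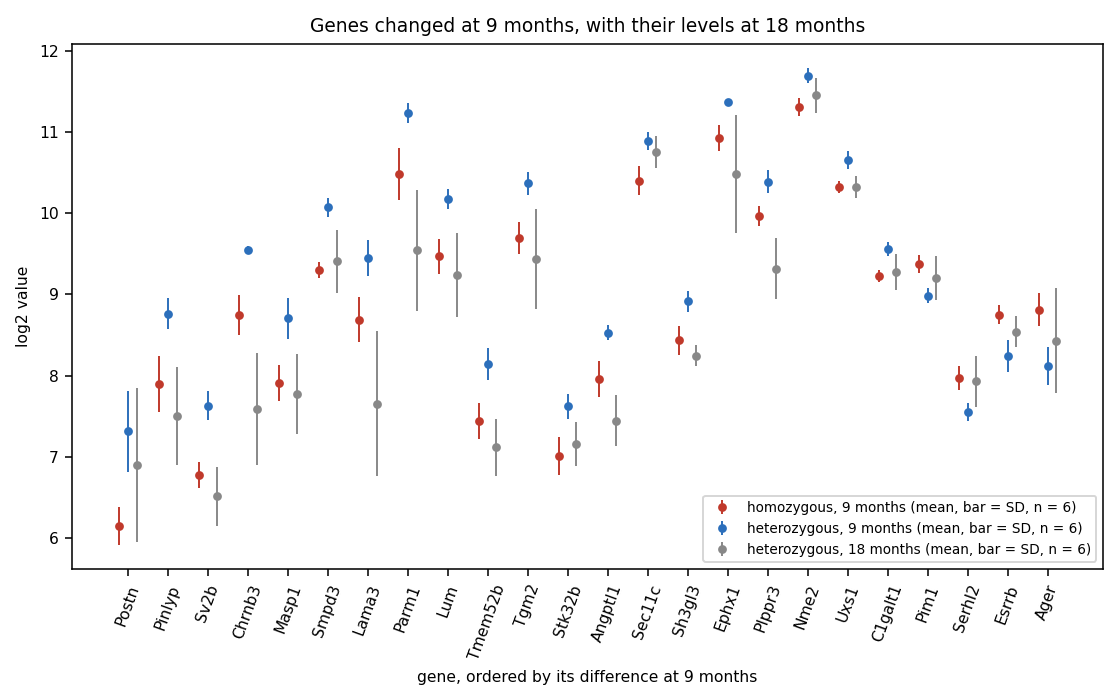
Mean log2 value of the 24 called genes in homozygous tumours at 9 months (red), heterozygous tumours at 9 months (blue) and heterozygous tumours at 18 months (grey), each with its SD as a bar (n = 6), ordered by the difference at 9 months. The grey group was not used to choose the genes, has the longest bars for most of them, and shares its genotype with the blue controls.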

How the data were processed

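The authors deposited log2 expression values of Affymetrix arrays. The submitters' processing notes name RMA, a method that includes quantile normalization, and version 1.3.0.187 of Affymetrix Expression Console, with no order or role for either. RNA was column-purified with DNase treatment and amplified over the whole transcript, per the labels' protocols. The genome build is not named in these notes. RMA gives the arrays one common distribution, so a shift of all genes together would be removed. Precision is limited by the number of arrays, which have no sequencing depth.

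Of 29214 probe sets 15310 have 1 gene symbol in the platform annotation, 323 several and 13581 none. Several probe sets were present for 527 of the 14506 genes, and the one with the highest mean over the 12 arrays stood for the gene. A gene was tested if its mean over the 12 arrays was at or above the 30th percentile (6.32) of probe set means, which held for 11361 genes, of which 11343 were found under the same symbol in a RefSeq table (GRCr8).

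A model of the 2 group means was fitted with limma 3.58.1 (lmFit, eBayes) in R 4.3.3, two-sided, and all adjusted p-values are Benjamini-Hochberg over the 11361 genes. A gene counted as changed at an adjusted p under 0.05. The procedure was run on simulated arrays with independent genes and the same SD in both groups. These arrays lacked the wider homozygous spread and the outlying tumour, so they do not show how the calls behave under such conditions. The arrays are of different animals by their codes, and no 2 arrays held identical values (correlations of 0.972 to 0.995). The deviations of same-numbered arrays from their group means were correlated over 0.1 in 1 of 6 pairs, replicate 6 at 0.305. The other pairs ran from -0.139 to 0.079, and replicate numbers were not taken as pairs.

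Genes named were Cdkn1b, Calca, Chga and Tg, up to 15 changed genes a direction by smallest p (filled to 10 where fewer changed), the 5 largest differences a direction among genes with non-overlapping groups, and from each list up to 4 changed members or else the 2 with the smallest p. Of lists without a member at an unadjusted p under 0.05 only counts are given. The 53 lists (37 of programmes, 16 of cell types) held 1509 entries, 1219 of them tested, and are described by counts and medians with no test. The genotype comparison, its members and the lists were chosen with earlier results of these data known. Alternatives were other filters and probe set rules, the replicate block, a model of all 18 arrays, other variance settings, array weights, further normalization, list means as covariates and leaving out tumours. The C cell and the follicular covariates were added after the data had been seen.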

Additional observations from a re-analysis of the deposited data

Results flagged for a closer look

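In 360 groups of 6 values, those of the named genes and of the list means in each genotype, 33 had a highest or lowest tumour set apart from the rest by Dixon's criterion at its 95% critical value. This is 9.17% of the groups, and chance alone gives about 1 in 20.

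Most of these values belong to homozygous replicate 3. In that tumour Tox measured 11.05, Uchl1 12.418, Nsg2 10.578, Plk1 8.223, Nusap1 8.602, Zmat3 8.861 and Ccne2 8.618, each the highest of its group. Pnpla2 measured 11.074, Duox2 8.188, Duoxa1 8.916, Psat1 11.57 and Stat2 10.003, each the lowest. Its list means were the highest for C cell genes (10.88), prohormone processing (11.90), synaptic vesicles (9.19), voltage-gated channels (9.18) and neurotransmitter receptors (8.84). They were the lowest for follicular markers (10.48), Wnt signalling (8.43) and Schwann cell markers (7.91). Array weights gave this tumour 0.184 and homozygous replicate 1 0.400, against 0.951 to 1.82 for the others.

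In heterozygous replicate 1 the values set apart were Hivep1 (9.264) and Clstn2 (9.341), both highest, and the means of the TGF-beta (9.29), antigen presentation (9.83) and macrophage lists (8.57), also highest. Its means of the clock list (9.38) and of parathyroid markers (9.46) were the lowest of the group.

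Of the other tumours, homozygous replicate 4 had the highest Lum (9.907), homozygous replicate 6 the highest Id2 (11.783) and homozygous replicate 1 the lowest Stc1 (8.693). Heterozygous replicate 4 had the highest Ephx1 (11.465) and the lowest Plk1 (6.417), and heterozygous replicate 3 the lowest Mrps24 (10.751).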

How the results depend on the processing

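The count of 24 called genes stayed between 18 and 25 without a filter, with the filter moved to the 50th percentile, other probe set rules, trend or robust variances, median centring or a further quantile normalization. It was 61 with array weights (22 higher, 39 lower, 24 shared) and 11 with the replicate block (0 higher, 7 shared), although replicate numbers were not taken as pairs. It was 2 with a variance per group and 0 in the model of all 18 arrays. With a list mean as covariate it was 3 for skeletal muscle, 6 for parathyroid, 3 for endothelial, 5 for C cell and 9 for follicular genes, the last 2 chosen after seeing the data. Without 1 tumour in turn it ran from 3 to 34, and it was 12 without homozygous replicates 1 and 3 and 9 without homozygous replicates 1, 2 and 3. The cause of these losses was not tested. The differences of the 24 genes were 70.5% to 104% of their size with the C cell and 73.4% to 109% with the follicular covariate.

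All 24 called genes kept their direction in every alternative, each of which reuses arrays on which they were chosen. Of the 127 genes examined, 5 changed sign somewhere. Chga, at -0.09, was 0.0692 with the parathyroid covariate and ran from -0.26 to 0.0066 without 1 tumour in turn. Without homozygous replicates 1, 2 and 3, Pparg was 0.0135 and Pvalb 0.46, from -0.23 and -1.37. With the C cell covariate Slc4a1 was 0.0209 and Zmat3 -0.0527, from -0.18 and 0.30. Without homozygous replicates 1, 2 and 3 the mean of skeletal muscle markers was higher in homozygous tumours by 0.64, and that of interferon genes by 0.171. Leaving out 1 tumour moved the median of a list by over 1.5 times or across 0 in 45 of 53 lists. Of the 18 lists with a median beyond 0.1 in size, 15 moved so and 1, the interferon list, changed sign. Whether Tg was saturated was not tested.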

Other observations

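In 907 of 11361 genes (7.98%) the range within 1 genotype was larger than 1.17, the largest called difference between genotypes. The genes named here were chosen after their values were seen. Sst, which encodes the inhibitory hormone somatostatin that some C cells also make, measured 9.56, 10.59 and 13.90 (lowest, median, highest) in homozygous and 7.86, 8.72 and 12.75 in heterozygous tumours, with a difference of 1.58 (SE 0.87, limma adjusted p = 0.399). Pth, which encodes parathyroid hormone, measured 8.33, 13.93 and 14.25 against 10.67, 14.17 and 14.26, so this parathyroid gene was bright in most tumours of both genotypes. Calcb, the gene of the calcitonin-related polypeptide beta, measured 8.85, 9.22 and 12.10 against 8.53, 8.96 and 9.47. The mitotic spindle factor Tpx2 had the lowest value of the cell division list (-1.12, SE 0.89, limma adjusted p = 0.556), while the median of that list was above 0. Kcnma1, a calcium-activated potassium channel, had the highest difference of the channel list (1.06, SE 0.30, limma adjusted p = 0.216). Gipr and Glp1r, receptors of the incretin hormones, differed by 0.60 and 0.56, and Calcrl, a receptor of calcitonin gene-related peptide and adrenomedullin, by -0.56. None of these passed the test.

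The lists not described so far had medians from -0.19 to 0.058 and 0 called genes. Cholesterol synthesis had 10 of 18 genes higher (median 0.058, and -0.004 without homozygous replicate 3), Ras-MAPK feedback and immediate early genes 20 of 31 (0.032), Notch signalling 10 of 21 (-0.0032) and the Atf4 list 8 of 19 (-0.025). Cytosolic heat shock genes were higher in 5 of 15 cases (-0.079) and antigen presentation genes in 6 of 18 (-0.030). Among cell types, adipocyte markers were higher in 3 of 14 cases (-0.19, and -0.115, -0.079 and -0.115 without homozygous replicate 1 and heterozygous replicates 3 and 4), erythroid in 4 of 7 (0.046), Schwann cell in 6 of 12 (-0.014), epithelial in 7 of 14 (-0.016), cartilage in 3 of 13 (-0.069) and neutrophil in 1 of 3 (-0.048).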
